A study of Drosophila melanogaster with 2 samples.

Results

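The genes described here are 9 muscle genes of Drosophila melanogaster, Msp300, sls, bt, Mhc, Mlc2, up, Mef2, twi and how, taken by name from the Ensembl annotation, out of 13968 protein coding genes. They were chosen by their peaks in these lists as well as by their roles, so which of them carry peaks is a description and was not tested. The data come from chromatin immunoprecipitation followed by sequencing (ChIP-seq) with an antibody against GFP on a transgenic fly line that stably expresses fu2 fused to GFP at its C terminus. The labels give prg as the targeted gene, and RefSeq lists fu2 among the other names of prg. All material was whole embryos of both sexes, 0 to 24 h old, in 1 group with 2 biological replicates, numbered 2 and 3, and the labels do not give what drives the transgene. A whole embryo mixes muscle with every other tissue, so a site held in few cells and a site held weakly in many cannot be told apart. No expression was measured, so markers of muscle could not be read.

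Each replicate has a list of 30000 regions, and a pooled list of 30000 regions derives from both. Of the pooled regions, 3033 passed the authors' threshold on the irreproducible discovery rate (IDR), a measure of how alike regions rank in the replicates. These are called IDR peaks, and their lowest signal value was 62.5. They were exactly the 3033 strongest regions of the pooled list, so a single IDR peak need not rank alike in both replicates. The signal value is the authors' own number for a region, is set per list, and is compared between lists only by rank, where rank 1 is the strongest. Over the 9 genes and 2 kb on each side lay 99 regions of the pooled list, 95 of replicate 2, 98 of replicate 3 and 10 IDR peaks. The read depth is unknown, and an input or unfused GFP library was not analysed here.

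A striated muscle fibre is built from repeated sarcomeres, in which thick filaments of myosin slide along thin filaments of actin anchored at Z discs. In the fly embryo the basic helix-loop-helix factor Twist, from twi, specifies the mesoderm, and the MADS-box factor from Mef2 then switches on muscle differentiation. Mhc encodes muscle myosin heavy chain, Mlc2 the regulatory light chain, up troponin T of the thin filament, sls and bt the titin-like proteins of the Z disc and the thick filament, and Msp300 a giant nesprin that anchors nuclei and organelles. The how product is a STAR family RNA-binding protein that acts in muscle and tendon cells.

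The DNA under the IDR peaks at Msp300, sls and how is shown here. The windows of the Mef2 peaks are not printed, although the strongest peak is among them. Each run holds 50 bp on either side of the summit, read from the NCBI Release 6 genome on dm6 coordinates, 5′ to 3′ in the direction of the gene, and none of its bases is in an annotated exon. The runs lie at chr2L:5108105-5108205 and chr2L:5145673-5145773 on the plus strand, at chr3L:2115833-2115933 on the minus strand, and at chr3R:22041781-22041881 and chr3R:22049264-22049364 on the plus strand. Capitals mark the searched words and, at Msp300, 11 letters that both windows share.
Msp300 peak before the second start: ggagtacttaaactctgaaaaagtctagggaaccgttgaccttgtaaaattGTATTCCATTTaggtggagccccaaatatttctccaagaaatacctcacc
Msp300 peak before the fourth start: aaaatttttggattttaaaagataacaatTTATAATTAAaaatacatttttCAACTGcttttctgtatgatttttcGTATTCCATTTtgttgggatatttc
sls peak before the start: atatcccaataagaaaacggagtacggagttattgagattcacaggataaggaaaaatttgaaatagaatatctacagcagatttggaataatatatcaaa
how peak before the start: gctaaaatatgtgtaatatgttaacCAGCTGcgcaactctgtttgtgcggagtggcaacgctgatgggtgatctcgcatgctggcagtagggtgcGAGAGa
how peak in the intron: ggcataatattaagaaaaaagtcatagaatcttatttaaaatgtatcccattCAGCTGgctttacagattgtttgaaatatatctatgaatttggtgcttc

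The shared letters GTATTCCATTT run from 1 to 11 bp after the summit in the first of the Msp300 windows and from 26 to 36 bp after it in the other. They were found by comparing the windows with each other after the data were seen. Within 50 bp of the summit, on either strand, only these 2 of the 3033 IDR peaks held them, and 4 of the 26329 pooled regions that overlap no IDR peak did. Of the 45 pairs of windows at the 9 genes, a further pair, the how intron peak and a Mef2 intron peak, also shared 11 letters, and 7 pairs shared 9. The letters of that further pair, not marked above, were likewise in 2 IDR peaks, and in 1 of the pooled regions that overlap none. Such sharing was thus not particular to Msp300.

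The structural gene Msp300 (FBgn0261836, 2L, 5100877 to 5207002, plus strand, 106126 bp, 11 transcripts from 5 starts) had the strongest peak for which it holds the nearest start. This IDR peak, at 5107926 to 5108329, had a signal value of 640.7 and rank 29 in the pooled list, rank 34 in replicate 2 (signal value 230.9) and rank 28 in replicate 3 (412.0). All 3 lists placed it among their strongest regions. Its summit was 357 bp upstream of the second start, used by 2 transcripts, and 659 bp upstream of the third, used by 1. For the 4 transcripts from the first start, 7278 bp upstream, the same summit lay inside the second intron of 13980 bp. No other annotated start of any gene was within 2 kb of it.

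A weaker Msp300 peak, at 5145521 to 5145924, stood before an internal start. Its signal value was 71.4, near the IDR threshold, with rank 2482 in the pooled list, 2296 in replicate 2 and 2771 in replicate 3. The summit was 663 bp upstream of the fourth start, used by 1 transcript, 6026 bp upstream of the fifth and 44846 bp downstream of the first. The nearest region to the first start, 717 bp upstream, had a signal value of 28.4 (rank 9719) and was no IDR peak. In the pooled list the nearest to the fifth start, used by 3 transcripts, was 2940 bp away with 15.6 (rank 27023). Replicate 3 alone listed weak regions 520 bp downstream of the fifth start and 59 bp upstream of the fourth (ranks 19246 and 22573). Closest to the third start was a pooled region 397 bp inside it (19.0, rank 19488), found in neither replicate. The nearest pooled summit was thus an IDR peak for the second start and the start at 5146386 alone, which serve 3 of the 11 transcripts.

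The Z disc gene sls (FBgn0086906, 3L, 2039681 to 2115611, minus strand, 75931 bp) had 1 IDR peak, and it was at the only annotated start, which all 13 transcripts share. The peak, at 2115788 to 2115969, had a signal value of 196.8 and rank 388 in the pooled list, rank 353 in replicate 2 (77.0) and rank 410 in replicate 3 (122.1), close in all lists. Its summit was 272 bp upstream of the start. The other 5 pooled regions of sls had signal values from 14.6 to 18.1, and the whole part of the gene past 25387 bp from the start held no pooled region. Replicate 2 listed 11 regions at sls and replicate 3 listed 6. In the part without a pooled region, replicate 2 had summits 34041, 54916 and 67955 bp from the start (ranks 21570, 26099 and 11363). Replicate 3 had a summit there at 28702 bp (rank 22971).

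The RNA-binding regulator how (FBgn0264491, 3R, 22042191 to 22079321, plus strand, 37131 bp) had 2 IDR peaks, and its 6 transcripts share 1 start. The stronger, at 22049112 to 22049515, was inside the second intron of 19345 bp in all 6 transcripts, 7123 bp downstream of the start. It had a signal value of 89.6 and rank 1735 in the pooled list, 1202 in replicate 2 (42.7) and 2590 in replicate 3 (44.5). The other, at 22041629 to 22042032, had its summit 360 bp upstream of the start, with a signal value of 64.1 and rank 2935. That peak differed between the replicates, with rank 5499 in replicate 2 (16.7) and 2161 in replicate 3 (49.8). In replicate 2 it was therefore not among the 3033 strongest regions, and without replicate 3 how had no promoter peak.

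The plot of all regions by gene shows how few of them passed the threshold.

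**Figure D1:**
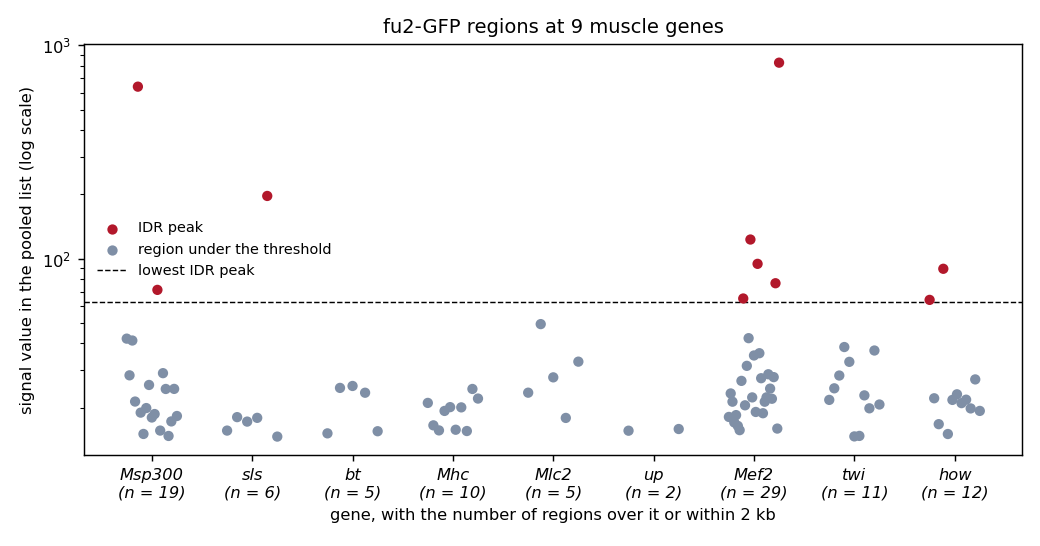
Signal value in the pooled list (log scale) of each of the 99 regions over the 9 genes or within 2 kb, 1 point per region and 1 column per gene; red points are IDR peaks, grey points are regions under the threshold, and the dashed line is the lowest IDR peak (62.5). The 10 red points belong to Msp300, sls, Mef2 and how, and the strongest region of the other 5 genes is at 49.3.

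The regulator Mef2 (FBgn0011656, 2R, 9913496 to 9958858, minus strand, 45363 bp, 11 transcripts from 3 starts) had 5 IDR peaks and 29 pooled regions, the most of the 9 genes in both counts. Of all protein coding genes, 0.308% (43 genes) had 5 or more IDR peaks over the gene or within 2 kb, and 2 of the 94 other muscle genes described below did. Most protein coding genes are far shorter than Mef2, and the share among long genes alone was not counted. The strongest, at 9959702 to 9960110, had a signal value of 830.1 and rank 14 in the pooled list, 16 in replicate 2 (305.0) and 13 in replicate 3 (524.6). Its summit was 1048 bp upstream of the first Mef2 start, but 174 bp upstream of the start of Pdrg1 and 172 bp upstream of a start of Pal1. It lay in a 76 bp intron of Pal1, and which of the 3 genes it belongs to was not tested.

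The other 4 Mef2 peaks lay inside the gene and were weaker. The peak at 9958641 to 9959044 had its summit 15 bp downstream of the first start, which 2 transcripts use, in an untranslated exon. Its signal value was 76.7, with rank 2221 in the pooled list, 2786 in replicate 2 and 2202 in replicate 3. The peak at 9942785 to 9943188 (122.9, rank 1004) was 1777 bp downstream of the second start, in an untranslated exon, and the first intron of 2 transcripts covers it. Replicate 3 ranked it 734 and replicate 2 ranked it 2637. The peak at 9949006 to 9949409 (94.5, rank 1590), in the first intron of 2 transcripts, likewise had rank 1089 in replicate 3 and 2505 in replicate 2. The peak at 9935792 to 9936195 (65.0, rank 2865), in introns of 3 transcripts and 6379 bp upstream of the third start, had the reverse order, with rank 2277 in replicate 2 and 3980 in replicate 3.

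The Mef2 start that most transcripts use had no IDR peak. The third start serves 8 of the 11 transcripts, and the nearest region, 27 bp inside it, had a signal value of 15.7 (rank 26836) and no counterpart in replicate 2. The second start, of 1 transcript, had a region 80 bp upstream of it with 19.1 (rank 19254) and a region 120 bp inside it with 35.1 (rank 6963), both under the threshold. Of the 3 Mef2 starts, the first alone had an IDR summit within 500 bp.

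**Figure D2:**
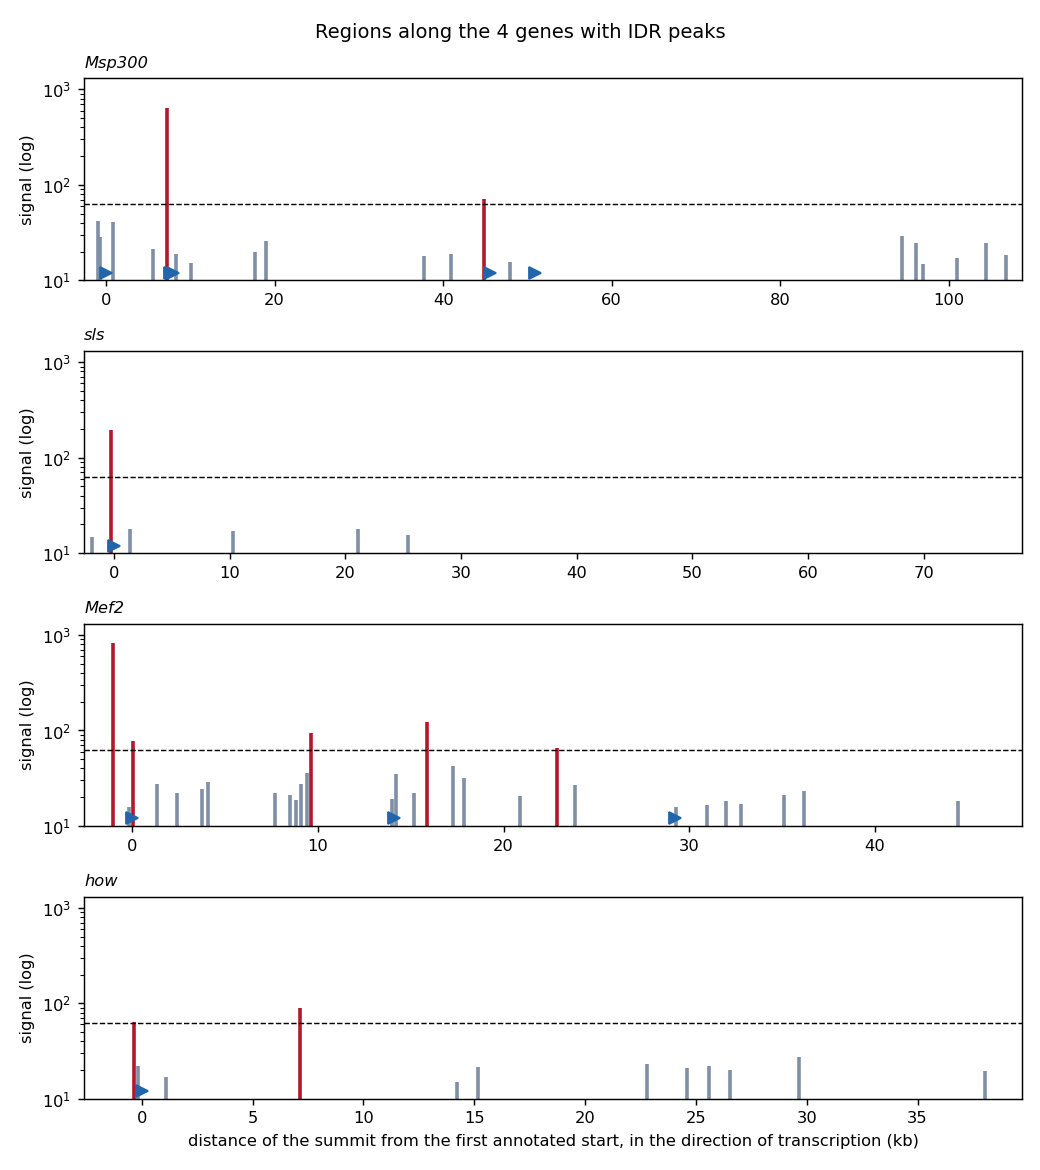
Pooled regions along Msp300, sls, Mef2 and how, with the distance of each summit from the first annotated start in kb on the x axis, in the direction of transcription, and the signal value on a log y axis; red bars are IDR peaks, grey bars are regions under the threshold, blue arrowheads are annotated starts, and the dashed line is the lowest IDR peak. The peaks of sls and Msp300 lie upstream of a start, 272, 357 and 663 bp away, and the 4 inner Mef2 peaks spread over the first 22864 bp of the gene.

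No region at the thick and thin filament genes Mhc, Mlc2, bt and up, nor at twi, was an IDR peak. Mhc (FBgn0264695, 2L, 16766566 to 16788766) had 10 pooled regions with signal values from 15.5 to 24.5 (median 19.7), and 1 of them overlapped a region in both replicates. Its best rank was 9397 in replicate 2 and 9177 in replicate 3. The start that 14 of its 21 transcripts use had its nearest summit 646 bp inside, with 19.3 (rank 18888).

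Mlc2 (FBgn0002773, 3R, 30171438 to 30174551), the shortest of the 9 genes at 3114 bp, came closest to the threshold among those without a peak. Its strongest region, at 30171297 to 30171700, had a signal value of 49.3 (rank 4255 in the pooled list, 8189 in replicate 2 and 3842 in replicate 3). That summit was 3052 bp downstream of the start, in an untranslated exon near the end of the gene. A further region 877 bp inside the gene, in coding sequence, had 32.9 (rank 7638), with rank 4180 in replicate 2 and 16344 in replicate 3. No pooled summit was within 500 bp of the Mlc2 start, though replicate 3 alone listed summits 68 and 280 bp upstream of it (ranks 15918 and 25434).

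At bt (FBgn0005666, chromosome 4, 724400 to 776474) the 5 pooled regions had signal values from 15.2 to 25.3, and 1 had a counterpart in both replicates. The region 11 bp inside its first start, of 3 transcripts, had 15.2 and differed between the replicates, with rank 7936 in replicate 2 and 25021 in replicate 3. At up (FBgn0004169, X, 13593474 to 13602578), which has 18 transcripts from 6 starts, only 2 pooled regions were listed, at 15.6 and 15.9. Each was found in a different replicate, the one 142 bp upstream of the first start in replicate 2 (rank 15490) and the one inside the gene in replicate 3 (rank 17516).

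The mesoderm regulator twi (FBgn0003900, 2R, 22985374 to 23048325) had 11 pooled regions, with signal values from 14.7 to 38.5 and 5 found in both replicates. All 11 summits lay in introns of the annotated gene, which owes its 62952 bp to 1 transcript from a far upstream start. The strongest, 17634 bp inside that start, ranked 6089 in the pooled list, 4877 in replicate 2 and 9417 in replicate 3. Before the 2 other starts, the nearest summit was 1902 bp upstream of the first of them, with 20.7 (rank 16704). The nearest summit to the far start was 3896 bp away, and no start of twi had a pooled summit within 500 bp. Replicate 3 alone listed a summit 64 bp upstream of the last start (rank 13013).

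Counted over genes, 4 of the 9 (44.4%) had an IDR peak over the gene or within 2 kb, and 30.6% of all protein coding genes did. The members are long, with a median of 45363 bp against 2165 bp for all protein coding genes. Among protein coding genes of 20000 bp or more, a group formed after the data were seen, 45.9% had such a peak, and 4 of the 7 members of that length did. A summit within 500 bp of an own start was found at the same 4 of the 9 genes, beside 17.5% of all protein coding genes. Since these lists chose the members, nothing is read from these counts.

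Counted over regions, the 9 genes were close to the genome. IDR peaks made up 10 of their 99 pooled regions (10.1%), and 10.1% of the whole pooled list. The genes with their flanks cover 450.0 kb and held 2.20 pooled regions per 10 kb and 2.22 IDR peaks per 100 kb. The arms 2L, 2R, 3L and 3R with chromosomes 4 and X held 2.24 and 2.27. By gene, the pooled density ran from 0.751 regions per 10 kb at sls and 0.892 at bt to 5.87 at Mef2 and 7.03 at Mlc2, with a median of 3.41 over protein coding genes. That median is taken over mostly shorter genes, with the same 2 kb flanks, and was not matched for length.

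The 10 IDR peaks lay in introns, in untranslated exons and before genes. Of the 99 regions, 54 had their summit in an intron and 5 of these were IDR peaks. Of the 12 before a gene 3 were IDR peaks, and of the 13 in untranslated exons 2 were. None of the 16 summits in coding exons and none of the 4 after a gene was an IDR peak. Msp300 held 8 of the coding exon summits, with signal values from 15.1 to 29.0. The 9 genes have 28 annotated starts, of which 15 had any pooled summit within 500 bp and 4 had an IDR summit there, 1 each in Msp300, sls, Mef2 and how.

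The replicates ranked the strongest peaks near Mef2, Msp300 and sls close together, and several weaker ones far apart. All 10 overlapped a region in each replicate. In replicate 2, 9 of them ranked 3033 or better, in replicate 3 also 9, and 8 did in both. The exceptions were the promoter peak of how in replicate 2 and the Mef2 peak 6379 bp before the third start in replicate 3. Signal in replicate 2 and replicate 3 had a Spearman rho of 0.45 across the 10 peaks, given as a description, since 5 of the points come from Mef2 and all from the same 2 libraries. Of the 89 regions under the threshold, 36 (40.4%) overlapped a region in both replicates, 48 in 1 and 5 in neither. Over the whole pooled list 47.4% of the regions without an IDR call were in both.

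**Figure D3:**
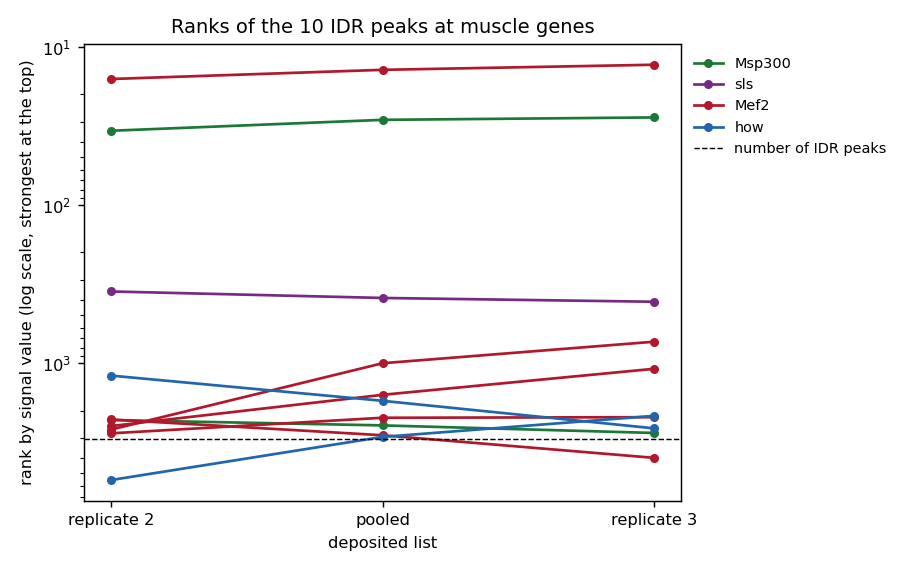
Rank by signal value (log scale, strongest at the top) of the 10 IDR peaks at Msp300, sls, Mef2 and how in the list of replicate 2, the pooled list and the list of replicate 3, 1 line per peak, with the dashed line at rank 3033. The lines of the strongest Mef2 and Msp300 peaks and of the sls peak are nearly level, and 1 how peak in replicate 2 (rank 5499) and 1 Mef2 peak in replicate 3 (rank 3980) lie past the dashed line.

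At the threshold, the weakest IDR peaks of the 9 genes had signal values of 64.1 (how), 65.0 (Mef2) and 71.4 (Msp300). The strongest regions under it had 49.3 (Mlc2), 42.4 (Mef2) and 42.1 (Msp300). At the 2 kb limit, measured from the edge of the region, the last inside were 1844 bp before Mhc (21.1) and 1687 bp before sls (14.6), and the first outside were 2275 bp from bt (14.6) and 2330 bp from how (31.3). IDR peaks that the limit left out lay 2516 bp from Mef2 (67.1) and 2750 bp from Msp300 (70.3).

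The sequence under the 10 summits varied widely in base composition. Within 50 bp of the summit the GC content ranged from 20.8% at the weaker Msp300 peak to 57.4% at the Mef2 peak beside its first start, with a median of 34.7%. The median was 36.6% over all IDR peaks and 45.5% over the regions that overlap none. The 3 strongest peaks had 29.7% near Mef2, 39.6% at Msp300 and 29.7% at sls. The 3 windows above 50% were both Mef2 peaks in untranslated exons (55.4% and 57.4%) and the how promoter peak (50.5%), as the printed sequence shows for how.

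Of the searched words, 3 were not found in these 10 windows. None held CAACACTG (3.86% of all IDR peaks and 0.539% of regions that overlap none), TATCGATA, the DNA replication-related element (3.00% and 0.931%), or CAGCNCTA or CATCNCTA, core promoter motif 7 (4.58% and 1.93%), on either strand. Together they were in 10.5% of all IDR peaks, which comes to about 1 window in 10, and the lack of these letters says nothing of the factors that bind them. The MEF2 consensus was in the weaker Msp300 window, from 21 to 12 bp before the summit, the stretch in capitals beginning TTATAA. It was in 5.01% of all IDR peaks and 2.48% of the other regions.

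The general E-box CANNTG, the kind of site that Twist and other helix-loop-helix proteins bind, was in 6 of the 10 windows, beside 38.6% of all IDR peaks and 42.1% of the other regions. Both how windows held it as CAGCTG, from 25 to 20 bp before the promoter summit and from 2 to 7 bp after the intron summit. The weaker Msp300 window held CAACTG, from 1 to 6 bp after the summit. The Twist forms CATATG and CACATG (7.62% of all IDR peaks) and the Tinman forms TCAAGTG and TTAAGTG (4.39%) were in none of the 10. GAGAG was in the how promoter window alone (10.1% of all IDR peaks). With 100 bp on each side, the E-box was in 7 of the 10 windows (62.5% of all IDR peaks and 66.6% of the other regions), the MEF2 consensus in 2 (9.76% of all IDR peaks) and a Twist form in 1 (14.0%).

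By rank in the pooled list and both replicates, the peaks most like the strongest of each gene were nearest to genes of other kinds, not always closely. The measure was the distance between log10 ranks over the 3 lists, and 2 peaks were taken for each gene, named by the nearest protein coding start. For Msp300 (ranks 29, 34 and 28 in pooled, replicate 2 and replicate 3) these were peaks nearest to CG4004 (28, 33 and 27), though 6036 bp away, and gish (33, 39 and 30), the gene of a casein kinase. For sls they were nearest to bin3 (pooled rank 406) and DNAlig3 (381), for the peak near Mef2 to CenG1A (15) and ph-p (13), and for how to CG6805 (1749) and Acsl (1770).

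A list of 94 other muscle genes, made with earlier results of these data known, had an IDR peak over the gene or within 2 kb at 35 (37.2%), beside 30.6% of all protein coding genes. A summit within 500 bp of an own start was found at 15 (16.0%), beside 17.5%. Of the 33 genes of 20000 bp or more 21 had a peak (63.6%), beside 45.9% of all protein coding genes of that length. Among the 61 shorter genes 14 had one, beside 30.6% of protein coding genes of any length. The share over all shorter protein coding genes was not counted. The median signal value of the strongest region was 49.5 over these genes and 45.2 over all protein coding genes with a listed region. These medians were not matched for length, and the 94 genes had a median of 11329.5 bp against 2165 bp for all protein coding genes. In 15 of the 35 genes the strongest peak was nearest to a start of another gene.

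Of the 20 genes of the thin and thick filaments, 4 had a peak, beside 30.6% of all protein coding genes. The thin filament genes had a median length of 3420.5 bp, with 2 of 14 at 20000 bp or more, and the thick filament genes 11669.5 bp, with 1 of 6. Of 14 thin filament genes 2 had a peak: tmod, the gene of the filament cap tropomodulin (215.8, 1463 bp from its start), and sals, whose peak (63.2) was 3 bp from the start of Exd2. The actin genes Act57B, Act79B, Act87E and Act88F had their strongest regions at 16.3 to 38.0, the tropomyosin genes Tm1 and Tm2 at 50.1 and 36.0, and wupA, the gene of troponin I, at 37.8. Of 6 thick filament genes 2 had a peak, Obsc (95.4) and Strn-Mlck (82.9), both nearest to a start of another gene. The myosin light chain gene Mlc1 (33.4) and Mf, the myofilin gene (24.5), had none.

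Genes that attach muscle to matrix and tendon had a peak at 10 of 13, beside 30.6% of all protein coding genes. These genes had a median length of 21601 bp and 7 of them had 20000 bp or more, a length at which 45.9% of protein coding genes had a peak; the part of length in the count was not tested. The strongest were at stck (368.8, 1260 bp from its start), which encodes PINCH, at Dg (212.9), which encodes dystroglycan, and at if (196.6), an alpha integrin gene, where the summit was 42 bp from the start of goe. Dys, the dystrophin gene, had 187.8, the beta integrin gene mys 130.8 with its summit 17 bp from the start, and the talin gene rhea 112.0. The spectraplakin gene shot had 119.2, the tendon factor gene sr 114.4 and parvin 126.2, there 23 bp from the start of CG18809. For 7 of the 10 genes the strongest peak was nearest to a start of the gene itself.

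The counts of the other roles stand beside the same 30.6% of all protein coding genes, or 45.9% of the long ones, and nothing particular to a role is read from them. Z disc partners, 5 of 10 of them long, had a peak at 4 of 10, led by the formin gene Fhos (386.9, rank 86 in the pooled list) and CAP (192.9). Of 11 myoblast fusion genes 5 had one, among them mbc (256.4, with a start of another gene 56 bp from the summit), the adhesion receptor gene kirre (210.5) and Vrp1 (120.9). The gene kirre is 394149 bp long and had 7 IDR peaks over it or within 2 kb. The arms 2L, 2R, 3L and 3R with chromosomes 4 and X held 2.27 per 100 kb. Of 28 mesoderm and muscle transcription factor genes 6 had one, led by zfh1 (241.4) and tup (172.0, 161 bp from the start of CG10602), while tin (45.4) had none and sna and eve had no pooled region. Of 4 mesoderm signalling genes 2 had one, with ths, an FGF gene, at 146.2. Of 5 calcium handling genes 2 had one, with the calcium pump gene SERCA at 107.6. Of 3 RNA-binding protein genes 2 had one, with muscleblind, mbl, at 99.6, where a start of a noncoding RNA was 363 bp from the summit and the nearest mbl start 2816 bp. The 15 genes with a peak past the 20 strongest, sals, Obsc and Strn-Mlck among them, ranged from 98.8 to 63.2.

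**Figure D4:**
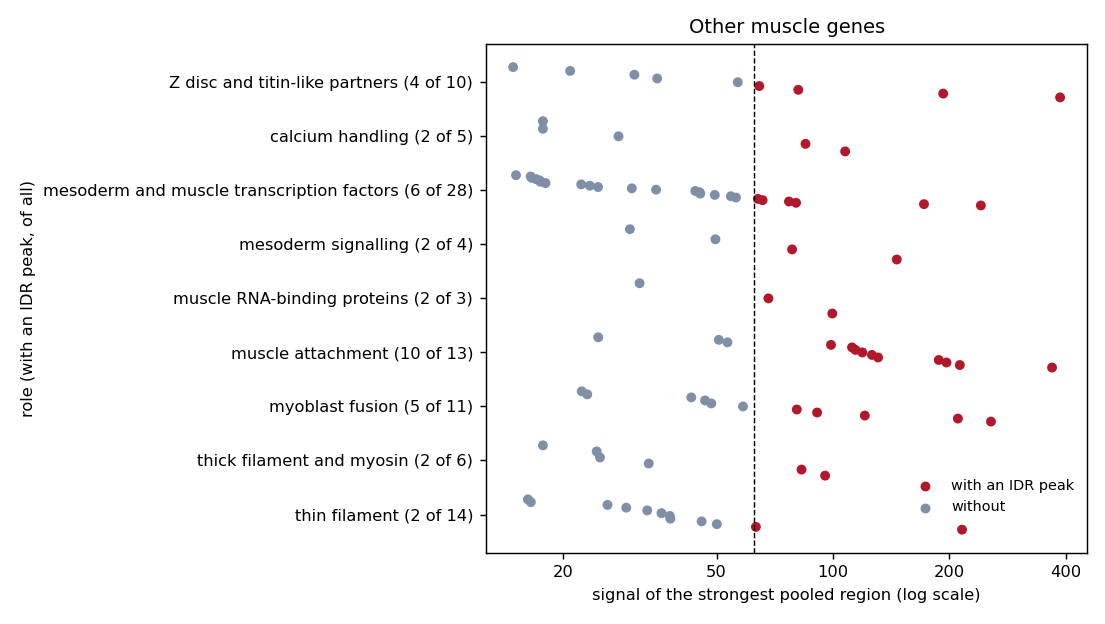
Signal value (log scale) of the strongest pooled region over each of the other muscle genes or within 2 kb, 1 point per gene with a listed region and 1 row per role; red points are genes with an IDR peak, the dashed line is the lowest IDR peak, and the labels give the genes with a peak of all listed. Right of the line lie 10 of 13 muscle attachment genes (median length 21601 bp) and 2 of 14 thin filament genes (3420.5 bp), beside 30.6% of all protein coding genes with a peak and 45.9% of those of 20000 bp or more; the 7 genes with no pooled region have no point.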

How the data were processed

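Per the file manifests, the deposited lists are in narrowPeak format on dm6. They name the alignment behind each replicate list, both alignments behind the pooled list, 1 further input for each, and these 3 lists as the origin of the IDR peaks. Aligner, peak caller, control and IDR threshold are not given in the sources used here. For every region, the deposited lists hold the authors' signal value, a q-value as −log10 (not used further) and the summit offset. Lists on dm3 were not used here.

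Positions were made 1-based. Annotated genes and starts were those of Ensembl release 115 (BDGP 6.54), leaving out transposable elements, and sequence was read from NCBI Release 6. A region belongs to a gene where it overlaps the gene or 2 kb around it by 1 bp. It was matched to the overlapping replicate region with the nearest summit, so neighbouring pooled regions can share a match. The members, the list of other muscle genes and the words were chosen with earlier results of these data known. The text names the members, the other muscle genes with the 20 strongest peaks and, for each member with a peak, the 2 peaks nearest in rank. Neighbours of a summit, and Mlc1, Mf, Tm1, Tm2, wupA, the actin genes, tin, sna, eve, sals, Obsc and Strn-Mlck, were chosen after their values were seen. No test was made, since 1 group has no conditions to compare. Overlaps and word searches were checked on simulated data (2000 of 2000 and 300 of 300 cases right). Python 3.11.15, numpy 2.4.6, pandas 2.3.3, scipy 1.17.1 and matplotlib 3.10.9 were used.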

Additional observations from a re-analysis of the deposited data

How the results depend on the processing

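No paired analysis was possible because there is 1 group. Among the 1516 strongest IDR peaks alone, the IDR peaks at the 9 genes fell from 10 to 4, the members with a peak from 4 to 3 (how lost both its peaks), the members with a promoter summit from 4 to 2 (Msp300 and sls), the other muscle genes with a peak from 35 to 21 and those with a promoter summit from 15 to 8. The shares of all protein coding genes fell with them, from 30.6% to 18.0% with a peak and from 17.5% to 9.66% with a promoter summit. With a promoter distance of 200 bp, 1 member (Mef2) and 9 other muscle genes had a promoter summit, beside 13.0% of all protein coding genes. Genes of 20000 bp or more alone, a setting chosen after seeing the data, gave 21 other muscle genes, beside 45.9% of all protein coding genes of that length. With 100 bp on each side, 1 of the 10 windows held CAACACTG, the DRE or motif 7, beside 17.3% of all IDR peaks. IDR peaks need both replicates, so with 1 left out the strongest regions in the list of the other alone took their place. When each replicate was left out in turn, members with a peak stayed at 4, their peaks were 9 and 9, members with a promoter summit 3 and 4 (how had none without replicate 3), other muscle genes with a peak 34 and 34, and those with a promoter summit 15 and 15. Of all protein coding genes 30.7% had a peak without replicate 3 and 30.5% without replicate 2, and 17.3% and 17.2% had a promoter summit. The gene body alone gave 3 members and 7 peaks, since the sls peak and 1 peak each of Mef2 and how lie before the gene. By that rule 17.5% of all protein coding genes had a peak. A flank of 5 kb, overlap by summit, a promoter distance of 1000 bp and protein coding transcripts alone left the 4 members with a peak and the 4 with a promoter summit as they were. With 5 kb, however, the peaks at members rose to 12 and the share of all protein coding genes with a peak to 42.1%. By summit that share was 29.8%. A promoter summit was found at 19.9% of all protein coding genes with 1000 bp and at 17.5% with protein coding transcripts alone. The depth is unknown, so a region missing from a list cannot be read as unbound.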
